A study of Mus musculus with 29 samples.

Results

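The genes described here make, sense, move, export or store cholesterol. They are 33 of the 36982 genes in the count table, taken by gene symbol from a list of pathway members. Of these, 18 encode enzymes of cholesterol synthesis, 8 encode regulators of that pathway or carriers of sterol inside the cell, and 7 encode efflux pumps, an oxysterol-making enzyme, liver X receptors, a target of these receptors and a storage enzyme. Expression was measured in microglia, the resident macrophages of the brain, by bulk RNA sequencing of 29 libraries in 6 groups.

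All mice were male C57BL/6J animals injected into the peritoneum at an age of 10 weeks and again 5 weeks later, and brains were taken 3 h after this second injection, at 15 weeks. An injection was either lipopolysaccharide (LPS, from Escherichia coli O111:B4, at 1 mg/kg) or phosphate-buffered saline. For 5 days from 1 week after the first injection, each mouse was gavaged with BLZ945 at 169 mg/kg per day or with its vehicle. BLZ945 inhibits CSF1R, a receptor that microglia need to survive, so the microglia of these mice at the second injection had repopulated the brain after depletion. The vehicle given to mice without depletion contained hydroxypropyl-beta-cyclodextrin, a ring-shaped sugar that binds cholesterol. Groups are named by first injection, depletion (B) and second injection, with P for saline. Without depletion, PP (n = 5) had saline both times, PL (n = 4) had saline and then LPS, and LL (n = 5) had LPS both times. With depletion, PBP (n = 5) had saline both times, PBL (n = 5) had saline and then LPS, and LBL (n = 5) had LPS both times. Comparisons of PL with PP and of PBL with PBP give the response to a first LPS, and comparisons of LL with PL and of LBL with PBL give the effect of LPS 5 weeks earlier. All groups share the sorting gate (live, CD11b-high, CD45-intermediate and Ly6C-negative single cells), so the libraries describe the cells that pass this gate.

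Cells build cholesterol from acetyl-CoA by way of mevalonate, farnesyl diphosphate, squalene and lanosterol. SREBP2, the product of Srebf2, is a membrane-bound transcription factor that turns on the enzymes of this route when sterol in the endoplasmic reticulum is low. SCAP escorts it to be cut and released, and the INSIG proteins hold it back when sterol or oxysterol is plentiful. Liver X receptors work in the opposite direction: they bind oxysterols and turn on efflux genes such as Abca1 and Abcg1. Ch25h makes 25-hydroxycholesterol, an oxysterol that macrophages produce during inflammation. In the adult brain, where cholesterol is made locally, microglia take up sterol from myelin and cell debris and pass it on to lipoproteins.

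Promoter sequence was available from RefSeq (GRCm38.p6) for 27 of the 33 genes. The 250 bases before the annotated start are printed, 5′ to 3′ on the gene's strand, for 4 genes: an enzyme of the first steps, an SREBP2 regulator and SREBP2 itself, and the oxysterol-making enzyme. The first is the 1 member with a match to the SREBP motif described next, and the others rose after a first LPS. Capitals mark a sterol regulatory element, the SREBP binding motif (SRE, letters TCACNCCAC), and CCAAT boxes, each searched on both strands, so that a CCAAT box on the other strand reads ATTGG.
Hmgcs1, chr13:119690101-119690350, plus strand: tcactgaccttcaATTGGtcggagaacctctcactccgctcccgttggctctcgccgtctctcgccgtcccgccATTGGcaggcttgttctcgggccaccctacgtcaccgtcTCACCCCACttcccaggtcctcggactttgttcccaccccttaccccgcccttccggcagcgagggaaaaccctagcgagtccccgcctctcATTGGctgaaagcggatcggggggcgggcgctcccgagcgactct
Insig1, chr5:28071162-28071411, plus strand: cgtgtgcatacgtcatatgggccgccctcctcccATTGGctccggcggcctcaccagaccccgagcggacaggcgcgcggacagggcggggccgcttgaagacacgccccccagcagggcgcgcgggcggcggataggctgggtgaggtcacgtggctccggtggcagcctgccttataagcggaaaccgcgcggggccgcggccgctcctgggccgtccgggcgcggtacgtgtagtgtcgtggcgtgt
Srebf2, chr15:82147019-82147268, plus strand: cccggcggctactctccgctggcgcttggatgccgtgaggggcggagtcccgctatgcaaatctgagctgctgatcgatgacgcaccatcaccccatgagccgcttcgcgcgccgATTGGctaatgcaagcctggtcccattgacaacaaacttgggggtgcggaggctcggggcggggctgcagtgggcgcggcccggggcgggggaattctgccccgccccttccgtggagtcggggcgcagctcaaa
Ch25h, chr19:34475149-34475398, minus strand: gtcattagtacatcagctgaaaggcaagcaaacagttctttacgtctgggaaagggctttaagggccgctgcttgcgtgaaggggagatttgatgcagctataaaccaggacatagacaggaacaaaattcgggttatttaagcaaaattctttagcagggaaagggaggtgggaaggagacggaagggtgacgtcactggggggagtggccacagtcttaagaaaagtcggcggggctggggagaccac
The SRE of Hmgcs1 lay 137 to 129 bases before the start, in the same window as 3 CCAAT boxes, whereas the Ch25h window held neither motif. The SRE letters were found in 1 of the 15 synthesis genes with a sequence, against 1.22% of 27025 genes and 1.05% of 32851 single promoters. A CCAAT box was found in 14 of these 15 synthesis genes, in 5 of 6 regulator and transport genes and in 2 of 6 efflux genes with a sequence, against 37.5% of 27025 genes and 33.8% of single promoters. The GC box GGGCGG, searched on both strands, was found in 14 of 15, 6 of 6 and 2 of 6 genes, against 35.4% of all genes and 32.7% of promoters. The AP-1 site TGANTCA, searched in the same way, was found in none of the 4 printed windows. It was found in 2 of 15, 0 of 6 and 0 of 6 genes of the 3 classes, against 7.82% of all genes and 6.75% of promoters. A match is a run of letters and not a measured binding site. Only exact letters within 250 bases were searched, so a window without a match does not show that a gene lacks a binding site.

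Total counts per library were between 5670450 and 12671476, and 32 of the 33 genes passed the filter on low counts. The exception was Idi1, the isomerase that makes dimethylallyl diphosphate, at 0.24 to 1.48 CPM, which are counts scaled to library size. The 5 microglia markers (Cx3cr1, P2ry12, Tmem119, Csf1r and Fcrls) summed to 32800 to 38300 CPM in PP and 15400 to 20500 CPM in PBL, and none was at 0 in a group. Sorting instrument and day nearly coincided with the groups: PP, PL and PBP replicates 1 to 4 were sorted on one instrument and PBP replicate 5, PBL, LL and LBL on the other. PBP replicate 5 stood apart within its group, with the 8 neuron markers at a sum of 145 CPM against 21.2 to 38.5 in the other PBP libraries and the microglia markers at 26300 against 31900 to 38600. The RNA quality number of PL replicate 3 was 6.5, against 7.4 to 9.1 in all other libraries. Genes were tested with edgeR's quasi-likelihood test and called at a Benjamini-Hochberg adjusted p under 0.05 over the 16632 genes tested, and every adjusted p below is of this kind.

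After a first LPS, Ch25h, Pmvk, Insig1 and Srebf2 were called higher and Mylip, Abcg1 and Npc1 lower, in mice with and without depletion. All PBL libraries were sorted on another instrument than PBP replicates 1 to 4, so instrument and LPS are not fully separate there. Values within one sorting batch are given below. In them Npc1 was not called in PL against PP (adjusted p = 0.0505) and stood at -0.31 in PBL against PBP replicate 5. In PL against PP, 5 of the 32 genes tested rose (Ch25h, Pmvk, Insig1, Srebf2 and Cyp51) and 4 fell (Mylip, Abcg1, Npc1 and Tm7sf2). These 28.1% compare with 26.2% called among all genes tested (14.2% higher and 11.9% lower), so the count alone does not set the list apart. In PBL against PBP, 5 rose (Ch25h, Pmvk, Insig1, Srebf2 and Hsd17b7) and 6 fell (Mylip, Abcg1, Soat1, Insig2, Npc1 and Abca1), 34.4% against 43.1% of all genes (21.5% higher and 21.5% lower). By role, 3 of 17 synthesis genes tested were called in PL against PP and 2 of 17 in PBL against PBP. For regulator and transport genes the numbers were 3 and 4 of 8, and for efflux, oxysterol and storage genes 3 and 5 of 7. The median log2 fold change of the last class was -0.33 in PL against PP and -0.77 in PBL against PBP, beside a median of 0 over all genes in both comparisons. The second median lies at or near Nr1h3, an uncalled gene at few counts (means of 1.51 CPM in PBP and 0.879 in PBL). With a prior count of 2, the median of the class was also taken per library, on the log2 scale relative to PP. Its group medians were -0.43 in PL, -0.46 in PBL and 0.07 in PBP. In bulk RNA of sorted cells, a change in the share of cells that express a gene and a change in RNA per cell cannot be told apart.

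**Figure D1:**
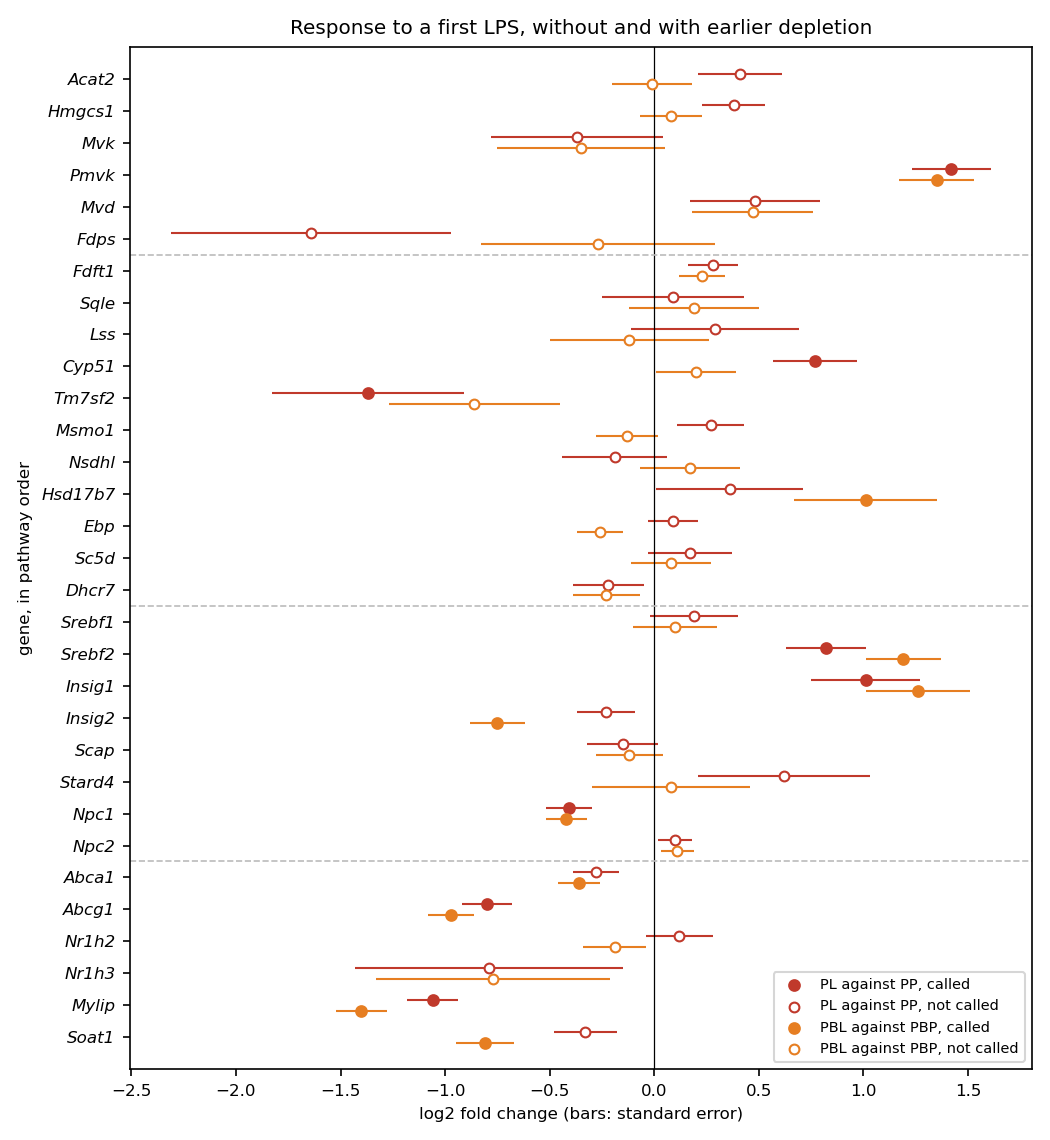
Log2 fold changes of 31 tested genes in pathway order for PL against PP (red) and PBL against PBP (orange), with bars of 1 standard error, filled points for called genes and dashed lines between synthesis to farnesyl diphosphate, the squalene and sterol steps, regulators and transport, and efflux genes. Pmvk, Srebf2 and Insig1 lie at 0.82 or above in both comparisons, and Abcg1 and Mylip at -0.80 or below; Ch25h, at 5.74 and 6.94, is left out to keep the scale.

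Among the enzymes up to farnesyl diphosphate, Pmvk was the one that rose. It encodes phosphomevalonate kinase, which adds the second phosphate to mevalonate. Its level was 8.18, 12.9, 15.3, 7.2 and 10.2 CPM in the PP libraries and 25.3, 38.5, 23.4 and 28.7 in PL. In PBP it was 12, 8.23, 9, 10.3 and 12 CPM and in PBL 28, 22.2, 32.3, 21.7 and 27. Every library with LPS lay above every library without it. The log2 fold change was 1.42 (SE 0.19, adjusted p = 3.04e-07) in PL against PP and 1.35 (SE 0.18, adjusted p = 2.86e-07) in PBL against PBP.

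The gene with the SRE in its window, Hmgcs1, encodes the synthase that makes HMG-CoA and was not called in either comparison. Its CPM was 32.7, 32.4, 29.2, 35.7 and 26.5 in PP and 47.7, 31.9, 37.8 and 45.5 in PL, ranges that overlap through PL replicate 2. The log2 fold change was 0.38 (SE 0.15, adjusted p = 0.0645), and without that library it was 0.48 with an adjusted p of 0.0255. DESeq2 called it, at an adjusted p of 0.0464. In repopulated microglia the Hmgcs1 difference was 0.08 (SE 0.15, adjusted p = 0.701). Acat2, which condenses acetyl-CoA, lay between 11 and 26.6 CPM over all 29 libraries, and Mvk and Mvd, the kinase and decarboxylase on either side of Pmvk, between 1.07 and 6.12 and between 3.51 and 14.1. None of the 3 was called in either response. Fdps, which makes farnesyl diphosphate, had 0.138 to 5.59 CPM, and adjusted p values of 0.0708 and 0.723. It shares 1124 exon bases on the same strand with Gm43738, which was too low to be tested. Reads of the shared bases cannot be assigned to one of them, so the CPM of Fdps may not give its full level. Exons of Hmgcs1 overlap 557 bases of the antisense gene Gm48342, which was not called in either response.

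In the steps from squalene on, Cyp51 rose in PL against PP and Tm7sf2 fell. Cyp51 encodes the lanosterol demethylase, and Tm7sf2 a sterol reductase of the next step. Cyp51 was at 18.2, 17.5, 14.4, 25.3 and 17.4 CPM in PP and 41.1, 23.4, 30.4 and 31.5 in PL, with PP replicate 4 above the lowest PL library. The log2 fold change was 0.77 (SE 0.20, adjusted p = 0.00322), and 0.20 (adjusted p = 0.42) in PBL against PBP, where PBP was already at 18.1 to 33.3 CPM. Exons of Cyp51 overlap 166 bases of Akap9 on the other strand, whose own value in PL against PP was 0.11 (adjusted p = 0.605). Tm7sf2 was at 2.78 to 4.32 CPM in PP and 0.265 to 2.32 in PL, with no overlap, and its log2 fold change was -1.37 (SE 0.46, adjusted p = 0.026). That call rested on few counts: it was lost without PP replicate 4 (adjusted p = 0.0517), PL replicate 1 (0.0803) or PL replicate 4 (0.107). In the reference annotation Tm7sf2 also shares 532 exon bases on the same strand with Vps51. In PL against PP Vps51 was not called (log2 fold change -0.30, adjusted p = 0.362). It fell in PBL against PBP (-0.70), where Tm7sf2 was not called.

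Hsd17b7, which reduces the keto sterol formed during demethylation, rose in PBL against PBP. Its CPM was 4.86, 2.06, 4.03, 5.72 and 4.19 in PBP and 12.5, 9.24, 6.97, 6.21 and 7.65 in PBL, without overlap. The log2 fold change was 1.01 (SE 0.34, adjusted p = 0.0167), and the call was lost without PBP replicate 2 (adjusted p = 0.0558) or PBL replicate 1 (0.0579), and with the RNA quality number in the fit (0.92, adjusted p = 0.0613). That number was 7.4 to 7.9 in PBL, and 8.8 to 9 in PBP replicates 1 to 4 and 7.4 in PBP replicate 5. Fdft1, the squalene synthase, was at 59.7 to 68.5 CPM in PBL and 47.1 to 59 in PBP, ranges that do not overlap, but its log2 fold change of 0.23 was not called (adjusted p = 0.111, and 0.0431 with DESeq2). The remaining sterol enzymes were called in neither response. Sqle, the squalene epoxidase, ranged over all libraries from 2.23 to 12.1 CPM, and Lss, the cyclase that forms lanosterol, from 2.65 to 13.6. Of the enzymes that finish the sterol, Msmo1 ranged from 60 to 133 CPM, Nsdhl from 6.83 to 24.8, Ebp from 104 to 185, Sc5d from 19.5 to 48.7 and Dhcr7 from 14.5 to 32.4.

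**Figure D2:**
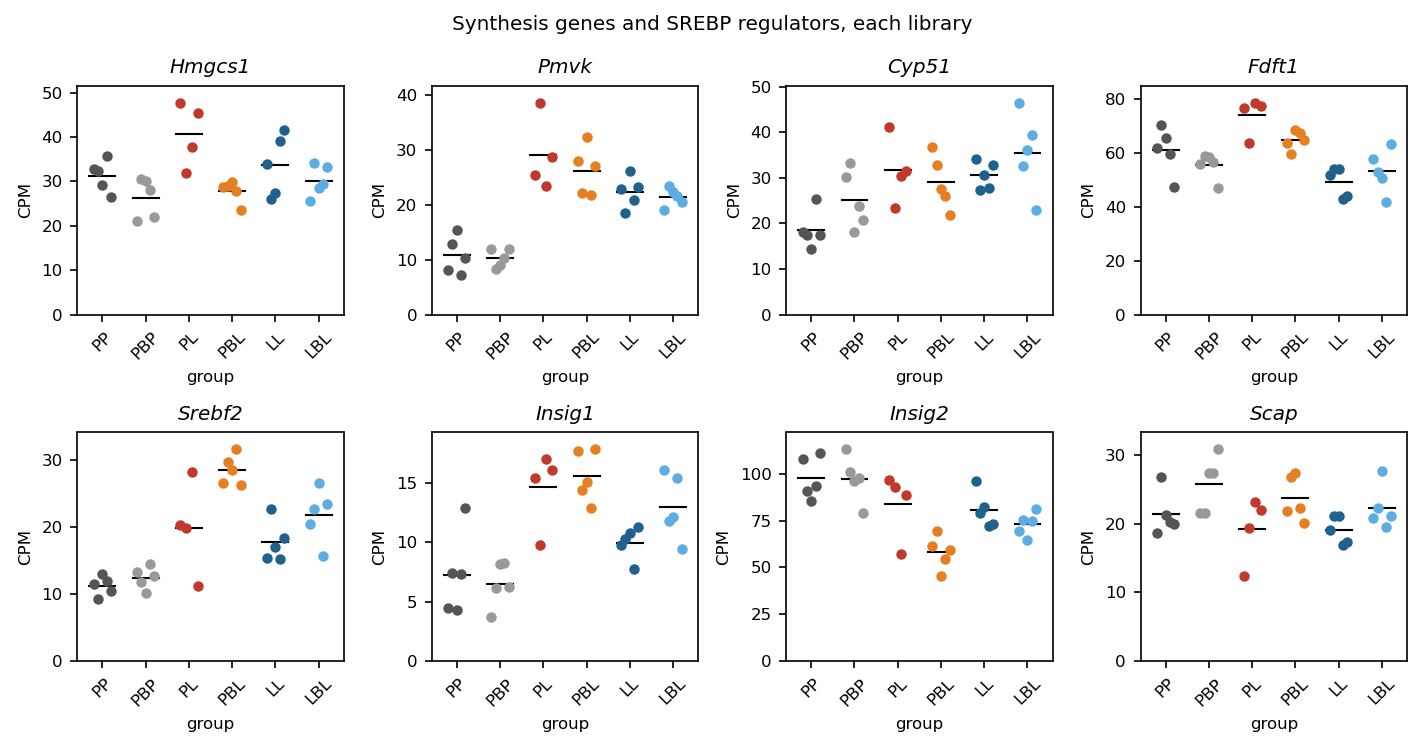
CPM of 4 synthesis genes (top row) and 4 regulators (bottom row) in each library, by group, with points for libraries and a line at the group mean. Pmvk and Srebf2 sit higher in the groups given LPS than in PP and PBP, with 1 PL library of Srebf2 at 11.1 CPM, while Hmgcs1 and Scap overlap between PP and PL and between PBP and PBL.

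RNA of the genes for SREBP2 and for one of its retention proteins rose. Srebf2 was at 11.4, 9.17, 13, 11.9 and 10.5 CPM in PP and 20.2, 19.8, 28.1 and 11.1 in PL, so that PL replicate 4 lay inside the PP range. In PBP it was 13.2, 11.7, 10.2, 14.4 and 12.6 CPM and in PBL 26.5, 29.7, 28.4, 31.5 and 26.2, with a wide gap between the groups. The log2 fold changes were 0.82 (SE 0.19, adjusted p = 0.00137) and 1.19 (SE 0.18, adjusted p = 2.44e-06). Insig1, itself a target of SREBP2, was at 4.46, 7.42, 4.3, 7.32 and 12.9 CPM in PP and 15.4, 9.8, 17 and 16.1 in PL. PP replicate 5 overlapped with PL. In PBL all 5 libraries, at 12.9 to 17.8 CPM, lay above the 3.68 to 8.23 of PBP. The log2 fold changes of Insig1 were 1.01 (SE 0.26, adjusted p = 0.00316) and 1.26 (SE 0.25, adjusted p = 0.000111).

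Insig2, the second retention protein, went the other way in repopulated microglia. Its CPM was 113, 101, 96.1, 97.9 and 78.8 in PBP and 61.5, 69.5, 45.6, 54.6 and 59.3 in PBL, without overlap, and the log2 fold change was -0.75 (SE 0.13, adjusted p = 1.63e-05). In PL against PP, at 57.3 to 96.6 against 85.7 to 111 CPM, it was not called. The difference between the responses, -0.52 (SE 0.19), had an adjusted p of 0.249, which became 0.0481 at -0.62 without PBP replicate 5. All remaining PBP libraries were sorted on another instrument than PBL, so instrument and depletion cannot be told apart in the latter value. Srebf1, which encodes the SREBP that acts mainly on fatty acid genes, and Scap ranged from 12.8 to 30.7 and from 12.4 to 30.8 CPM and were called in neither response.

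Of the genes that move sterol inside the cell, Npc1 fell in both responses and Npc2 and Stard4 were not called. NPC1 and NPC2 hand cholesterol out of the lysosome, and STARD4 carries it between membranes. Npc1 was at 187, 219, 235, 265 and 220 CPM in PP and 156, 176, 182 and 163 in PL, and at 198 to 252 in PBP and 152 to 173 in PBL. Neither pair of groups overlapped. The log2 fold changes were -0.41 (SE 0.11, adjusted p = 0.0048) and -0.42 (SE 0.10, adjusted p = 0.00136). Exons of Npc1 overlap 511 bases of Rmc1 on the other strand, and Rmc1 fell as well, by 0.30 and 0.36 on the log2 scale. The strand setting of the counting is not given in the sources used here, so reads of the overlap cannot be told apart. Npc2 lay between 923 and 1370 CPM over all libraries, with log2 fold changes of 0.10 and 0.11 (SE 0.08 each), and Stard4 between 1.51 and 13 CPM.

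Ch25h had the largest log2 fold change of the 32 genes tested in both responses. Its CPM was 1.12, 0.405, 1.27, 0.12 and 1.39 in PP and 59.7, 25.3, 56.5 and 44.6 in PL. In PBP it was 1.84, 2.31, 1.34, 2.06 and 0 and in PBL 295, 133, 230, 207 and 120. Libraries with and without LPS were far apart, and the count of 0 in PBP replicate 5 allows a level of up to 0.466 CPM (3 counts, counting error only). The log2 fold change was 5.74 (SE 0.56, adjusted p = 6.95e-09) in PL against PP and 6.94 (SE 0.51, adjusted p = 2.43e-11) in PBL against PBP. Gm26902, an RNA gene annotated as starting opposite Ch25h with 159 overlapping exon bases, rose by 5.88 on the log2 scale in both comparisons (adjusted p = 3.7e-08 and 1.33e-10), and reads of the overlap cannot be assigned to one of them.

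Of the sterol export pumps, Abcg1 fell in both responses and Abca1 in PBL against PBP. Abcg1, a pump that passes cholesterol to high-density lipoprotein, was at 622, 619, 706, 614 and 564 CPM in PP and 442, 335, 308 and 352 in PL. In PBP it was 560, 486, 604, 574 and 494 CPM and in PBL 328, 280, 227, 245 and 306. The libraries with LPS lay below all those without it, at log2 fold changes of -0.80 (SE 0.12, adjusted p = 2.34e-06) and -0.97 (SE 0.11, adjusted p = 1.03e-08). Abca1, the pump that loads lipid-poor apolipoproteins, was at 306, 289, 319, 325 and 238 CPM in PBP and 218, 249, 244, 222 and 220 in PBL, overlapping through PBP replicate 5. Its log2 fold change there was -0.36 (SE 0.10, adjusted p = 0.00486), and with the RNA quality number in the fit -0.26 (adjusted p = 0.0617). In PL against PP it was -0.28 (adjusted p = 0.0516), with PL replicate 1 at 310 CPM inside the 260 to 344 of PP. Without that library it was -0.40 (adjusted p = 0.00549), and without PP replicate 5 it was -0.34 (adjusted p = 0.0248).

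Mylip fell in both responses and Soat1 in PBL against PBP. Mylip, a liver X receptor target, encodes a ubiquitin ligase that marks lipoprotein receptors for breakdown. Its CPM was 219, 264, 245, 235 and 275 in PP and 119, 151, 91.9 and 113 in PL. In PBP it was 232, 300, 272, 257 and 189 and in PBL 101, 95.9, 89.9, 84.6 and 103. Neither pair of groups overlapped, and the log2 fold changes were -1.06 (SE 0.12, adjusted p = 2.11e-08) and -1.40 (SE 0.12, adjusted p = 7.08e-12). Soat1, which esterifies cholesterol for storage in lipid droplets, was at 142, 191, 191, 185 and 137 CPM in PBP and 126, 107, 96.7, 72.8 and 80.6 in PBL. It fell by 0.81 on the log2 scale (SE 0.14, adjusted p = 1.49e-05). In PL against PP its value was -0.33 (adjusted p = 0.0976), or -0.47 (adjusted p = 0.0245) without PL replicate 1. The receptors themselves, Nr1h2 (LXR beta) at 52 to 110 CPM and Nr1h3 (LXR alpha) at 0.269 to 2.59 CPM, were not called in either response.

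**Figure D3:**
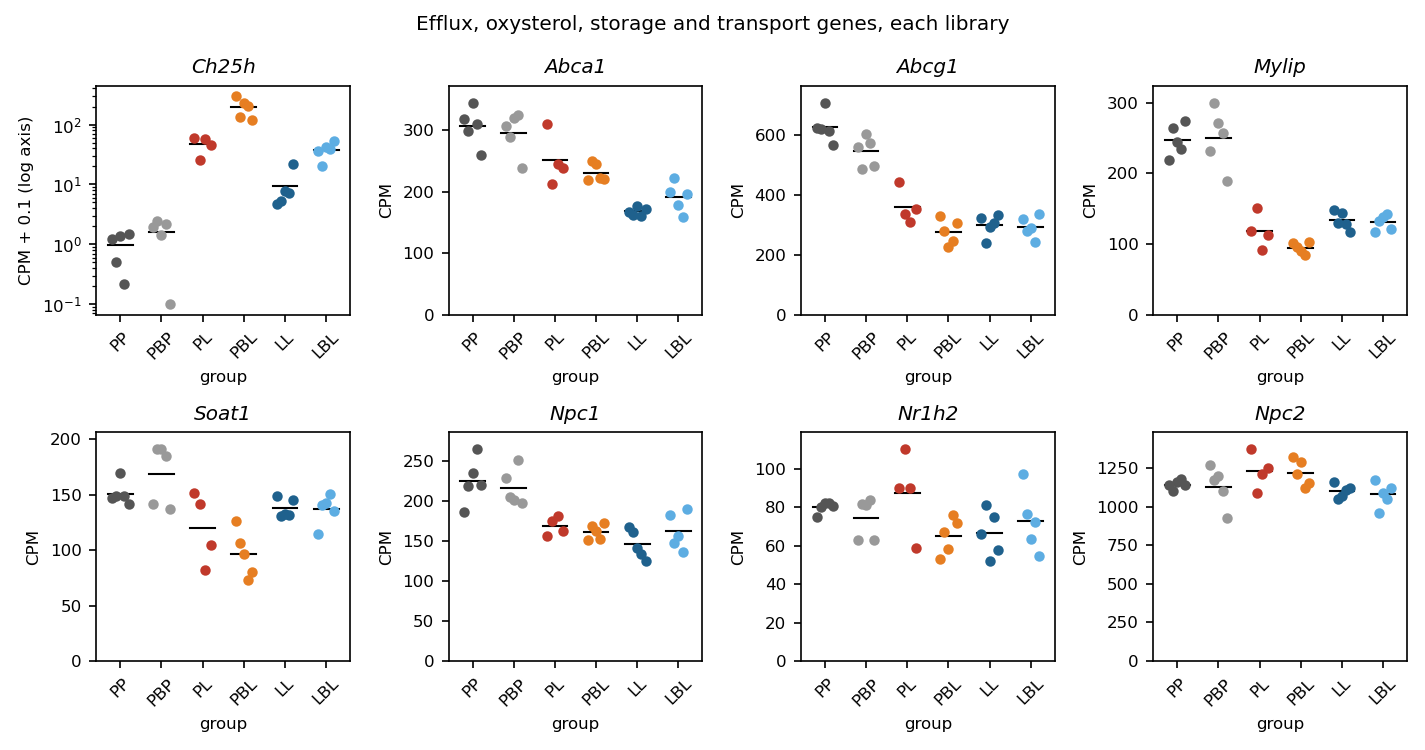
CPM of 8 efflux, oxysterol, storage and transport genes in each library, by group, with points for libraries and a line at the group mean; the Ch25h panel has a log axis of CPM + 0.1. Ch25h lies between 0 and 2.31 CPM without LPS, and PL (25.3 to 59.7) and PBL (120 to 295) lie above LL (4.53 to 22.2) and LBL (19.9 to 52.8), respectively, while Abcg1 and Mylip are lower in all 4 groups with LPS.

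Values within one sorting batch could be had for part of these results. PP shared its sorting day with PL replicates 3 and 4, of which replicate 3 had the lowest RNA quality number (6.5, against 8.6 to 9.1 in PP). Against these libraries 7 of the 9 calls in PL against PP held, among them Ch25h at 5.86, Pmvk at 1.29, Cyp51 at 0.74, Srebf2 at 0.81, Insig1 at 1.20, Abcg1 at -0.91 and Mylip at -1.26. Npc1 (-0.38, adjusted p = 0.0505) and Tm7sf2 (-1.62, adjusted p = 0.0537) were no longer called, and Soat1 was (-0.68, adjusted p = 0.00312). PBL shared instrument and day with PBP replicate 5 only. Against that single library, with its spread taken from the other groups, Pmvk (1.11), Srebf2 (1.15), Insig1 (1.30), Abcg1 (-0.86), Mylip (-1.01) and Ch25h were called. The mean of Ch25h in PBL was at least 423-fold higher than the level that a count of 0 allows in PBP replicate 5. Insig2 (-0.46), Npc1 (-0.31), Abca1 (-0.07), Soat1 (-0.53) and Hsd17b7 (0.99) were not called against that library, with adjusted p values from 0.0915 to 0.861. When the instrument was instead a term in the fit over all groups, these 5 were not called either, and Insig1 lost its call as well (1.32, adjusted p = 0.0631).

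Markers of other cells moved in the same comparisons. In PBL against PBP all 7 neutrophil markers were called higher, with a summed level of 125 to 476 CPM in PBL against 0 to 6.52 in PBP, and 6 of 7 neuron markers tested were, at 98.2 to 192 against 21.2 to 145 CPM. The neuron sum of 145 CPM belongs to PBP replicate 5, sorted on the instrument of PBL, where the median was 142. The other PBP libraries lay at 21.2 to 38.5 CPM, so instrument and LPS cannot be told apart for the neuron markers. Of 8 astrocyte markers 5 were called higher, at 683 to 894 against 383 to 451 CPM, while 4 of 5 microglia markers were called lower. Of the oligodendrocyte markers 3 of 8 were called higher and 1 lower, of the monocyte markers 2 of 5 tested higher and 1 lower, of the vessel markers (endothelial cells and pericytes) 2 of 3 tested higher and 1 lower, and 2 of 6 markers of border-associated macrophages, which line vessels and meninges, were lower. In PL against PP 3 of 5 microglia markers were called lower, with sums of 22400 to 24400 CPM in PL against 32800 to 38300 in PP. The astrocyte sum was 748 to 1020 CPM in PL against 437 to 589 in PP, again without overlap, with 1 of 8 markers called higher. In the same comparison 1 of 7 neutrophil markers and 1 of 5 monocyte markers were higher and 1 of 8 oligodendrocyte markers was lower, and none of 7 neuron markers was called. The neutrophil sum was 1.24 to 21.1 CPM in PL against 0 to 7.85 in PP, and the neuron sum 21.2 to 42.4 against 11.3 to 30.2. The part of these cells in the changes of the cholesterol genes, here and in the comparisons below, was not tested.

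After the second injection Ch25h was lower in mice with earlier LPS than in mice with a first LPS, with and without depletion. In LL it was at 4.53, 5.21, 7.73, 7.19 and 22.2 CPM and in LBL at 36.6, 19.9, 42.7, 38.3 and 52.8, in both cases below every library of PL and PBL, respectively. The log2 fold change was -2.30 (SE 0.41, adjusted p = 0.00114) in LL against PL and -2.38 (SE 0.37, adjusted p = 0.000148) in LBL against PBL. The difference between these effects was -0.07 (SE 0.56, adjusted p = 0.967). All LL libraries were sorted on another instrument than PL, so instrument and earlier LPS cannot be told apart there. LBL and PBL share the instrument but no sorting day, so day and earlier LPS cannot be told apart between them. LL replicate 5, at 22.2 CPM, was far above the rest of its group, and without it the value for LL against PL was -2.93. Marker levels differed between these groups too. In LBL against PBL all 7 neutrophil markers were called lower, with sums of 0.68 to 4.73 CPM in LBL against 125 to 476 in PBL, and 2 of 5 monocyte markers were lower and 1 of 8 oligodendrocyte markers higher. In LL against PL 2 of 7 neuron markers were called higher, with sums of 44.8 to 187 CPM in LL against 21.2 to 42.4 in PL, and 1 of 8 astrocyte markers was. Both groups given LPS again stayed above the groups without LPS: 3.44 (SE 0.59, adjusted p = 6.79e-05) in LL against PP and 4.56 (SE 0.50, adjusted p = 6.72e-08) in LBL against PBP.

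Other cholesterol genes were also called between mice with and without earlier LPS. In LL against PL, 1 of 32 genes was called higher and 3 lower (12.5% in either direction), against 0.752% and 2.03% of all genes (2.78% in either direction). LL and PL were sorted on different instruments, which cannot be told apart from earlier LPS. Besides Ch25h, the lower ones were Abca1 and Fdft1. Abca1 was at 167, 162, 177, 160 and 172 CPM in LL, below all PL libraries (212 to 310), with a log2 difference of -0.58 (SE 0.11, adjusted p = 0.000724). Fdft1 was at 51.8, 54.1, 54, 42.8 and 43.9 CPM in LL and 76.9, 63.6, 78.6 and 77.3 in PL, again without overlap, at -0.59 (SE 0.12, adjusted p = 0.00278). Exons of Fdft1 overlap 774 bases of the cathepsin gene Ctsb on the other strand, whose own value was -0.23 (adjusted p = 0.157). Tm7sf2 was called higher, at 1.62 (SE 0.46, adjusted p = 0.049). This call was lost without any one of PL replicates 1, 3 and 4 and LL replicates 1, 3, 4 and 5, with adjusted p values from 0.0521 to 0.18. With the instrument as a term in the fit, Abca1 (-0.2, adjusted p = 0.703) and Fdft1 (-0.3, adjusted p = 0.613) were not called.

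In LBL against PBL, which share the instrument but not the day, 2 genes were called higher and 1 lower, against 2.74% and 4% of all genes (6.74% in either direction). All 7 neutrophil markers and 2 of 5 monocyte markers were lower in the same comparison, as given above for Ch25h. Mylip was at 117, 133, 138, 143 and 121 CPM in LBL, above all PBL libraries (84.6 to 103), with a log2 difference of 0.46 (SE 0.12, adjusted p = 0.0112). Soat1 was at 115, 141, 143, 151 and 135 CPM in LBL, overlapping with PBL through PBL replicate 1, at 0.51 (SE 0.14, adjusted p = 0.0216). The Soat1 call was lost without PBL replicate 4 (adjusted p = 0.0945), PBL replicate 5 (0.07), LBL replicate 2 (0.0566) or LBL replicate 4 (0.0697). Among the libraries sorted on that instrument alone, Ch25h (-2.37), Mylip (0.47) and Soat1 (0.52) were all called, whereas with the RNA quality number in the fit Mylip (0.34, adjusted p = 0.0786) and Soat1 (0.34, adjusted p = 0.138) were not. The RNA quality number was 7.6 to 8.9 in LBL and 7.4 to 7.9 in PBL. None of the 32 genes passed the test of the difference between the earlier LPS effects (0.0241% of all genes did, 0.012% higher and 0.012% lower), where 4 had an unadjusted p under 0.05: Insig2, Abca1, Abcg1 and Nr1h2. DESeq2 also called none of the 32.

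**Figure D4:**
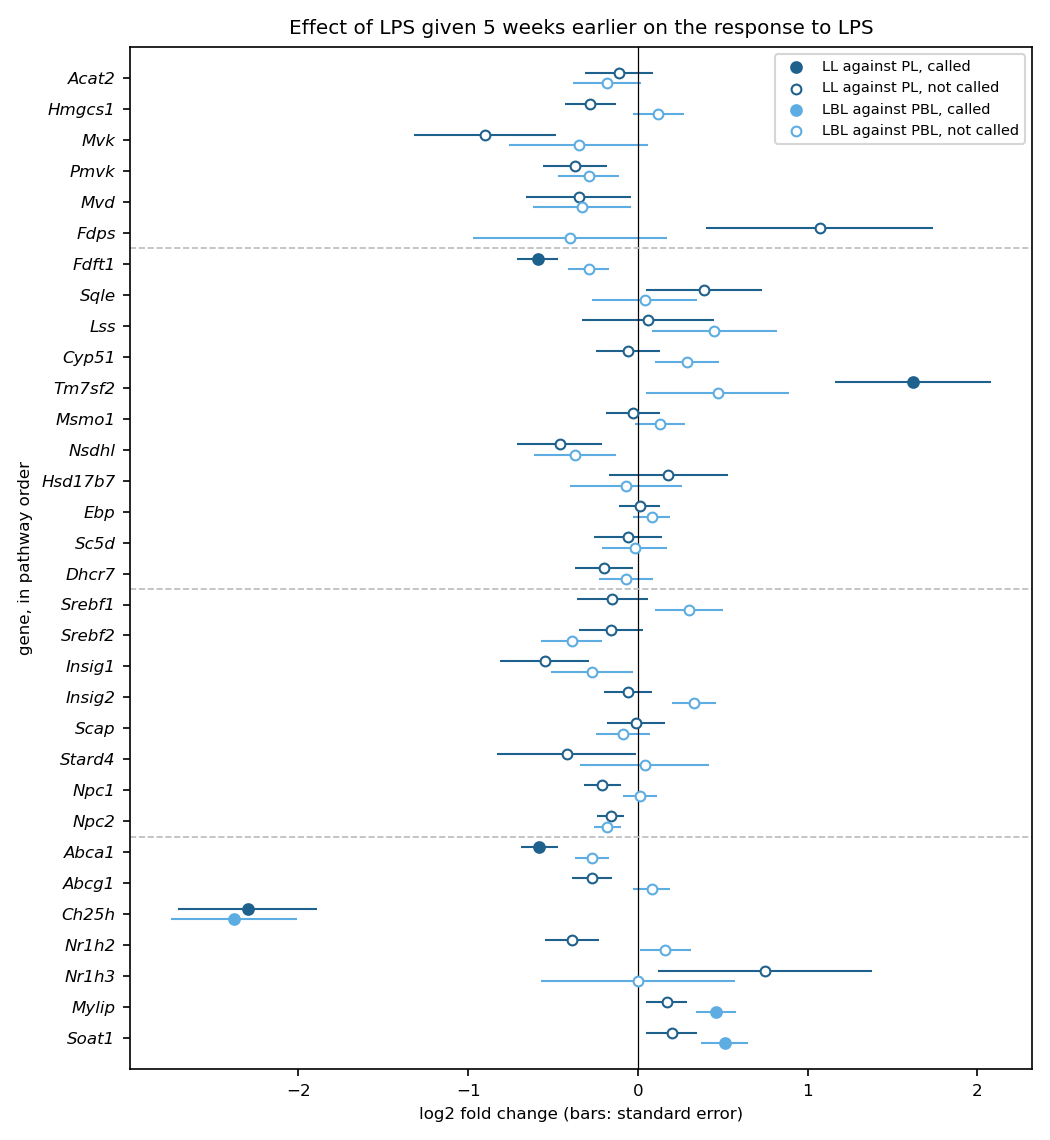
Log2 fold changes of the 32 tested genes in pathway order for LL against PL (dark blue) and LBL against PBL (light blue), with bars of 1 standard error and filled points for called genes. Ch25h stands at -2.30 and -2.38 in the 2 comparisons, and most other genes lie within 1 log2 unit of 0.

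Measured against mice without LPS, Abcg1, Mylip and Abca1 were called lower in the groups given LPS again. For Abca1 after depletion the call was lost on the shared instrument. Without depletion, the calls of Mylip and Abca1 were lost with the instrument as a term in the fit. In LL against PP 4 genes were higher and 8 lower, against 18.9% and 13.2% of all genes (32.1% in either direction). Abca1 (-0.87), Abcg1 (-1.07), Mylip (-0.89) and Npc1 (-0.62) fell, with largest adjusted p 1.84e-05, and Pmvk (1.05), Cyp51 (0.71) and Srebf2 (0.67) rose with Ch25h. Mvk (-1.27, adjusted p = 0.0138), Nsdhl (-0.65, 0.0321), Fdft1 (-0.31, 0.0382) and Dhcr7 (-0.43, 0.04) fell as well. Nsdhl lost its call without PP replicate 1 or 3 or LL replicate 4 or 5 (adjusted p from 0.0592 to 0.0991). Fdft1 lost it without PP replicate 1, 2, 3 or 4 or LL replicate 4 or 5 (0.054 to 0.118), and Dhcr7 without PP replicate 1, 3, 4 or 5 or LL replicate 1, 2 or 3 (0.055 to 0.104). LL and PP were sorted on different instruments, which cannot be told apart from the treatment. With the instrument as a term in the fit, Abca1 (-0.48), Mylip (-0.4), Npc1 (-0.46), Pmvk (0.78), Cyp51 (1.06) and Srebf2 (0.65) were not called. Neither were Mvk, Nsdhl, Fdft1 and Dhcr7. All 7 neuron markers tested were called higher in LL against PP (sums of 44.8 to 187 CPM against 11.3 to 30.2). So were 5 of 8 astrocyte, 4 of 8 oligodendrocyte, 2 of 7 neutrophil and 1 of 5 monocyte markers, while 4 of 5 microglia markers were lower (18200 to 24200 CPM against 32800 to 38300), as was 1 marker each of oligodendrocytes, border-associated macrophages and vessel cells. In LBL against PBP 6 were higher and 5 lower, against 14.6% and 13.6% (28.2% in either direction). There Abca1 (-0.63), Abcg1 (-0.89), Mylip (-0.93), Npc1 (-0.42) and Insig2 (-0.42) fell, and Pmvk (1.05), Insig1 (0.99), Srebf2 (0.80), Hsd17b7 (0.95), Cyp51 (0.49) and Ch25h rose. Hsd17b7 (adjusted p = 0.0347) lost its call without PBP replicate 2 or 3 or LBL replicate 2, 3, 4 or 5 (0.0523 to 0.103). Cyp51 (adjusted p = 0.0444) lost it without PBP replicate 3, 4 or 5 or LBL replicate 1, 2, 3 or 4 (0.0501 to 0.15). On the shared instrument, where PBP replicate 5 is the only control library, Ch25h, Abcg1 (-0.77) and Mylip (-0.54) were called. The other 8 genes lost their calls there: Abca1 (-0.33, adjusted p = 0.22), Npc1 (-0.29, 0.382), Insig2 (-0.12, 0.803), Pmvk (0.82, 0.0768), Insig1 (1.04, 0.0907), Srebf2 (0.77, 0.131), Cyp51 (0.76, 0.146) and Hsd17b7 (0.94, 0.404). In LBL against PBP 4 of 7 neuron markers were called higher (sums of 75.2 to 179 CPM against 21.2 to 145, the highest being PBP replicate 5). Also higher were 3 of 8 oligodendrocyte, 2 of 8 astrocyte and 1 of 7 neutrophil markers. Lower there were 3 of 5 microglia markers (18100 to 22300 CPM against 26300 to 38600), 3 of 6 of border-associated macrophages, 2 of 5 of monocytes and 1 each of oligodendrocytes and vessel cells. These comparisons share their control libraries with the responses to a first LPS and are not independent of them.

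Depletion and repopulation without LPS moved no cholesterol gene past the threshold. In PBP against PP none of the 32 genes was called by edgeR or by DESeq2, against 0.529% of all genes (0.289% higher and 0.241% lower), and 3 had an unadjusted p under 0.05: Cyp51, Nsdhl and Stard4. The smallest adjusted p was 0.279. After a first LPS, PBL and PL differed in 6 genes, 3 higher and 3 lower in PBL, against 11% and 11.1% of all genes (22.1% in either direction), but these groups were sorted on different instruments and days. Their marker levels differed widely. All 7 neutrophil markers (sums of 125 to 476 CPM in PBL against 1.24 to 21.1 in PL) and all 7 neuron markers tested (98.2 to 192 against 21.2 to 42.4 CPM) were higher in PBL. So were 5 of 8 astrocyte markers, 5 of 8 oligodendrocyte markers, 2 of 3 vessel markers and 1 of 5 monocyte markers. Lower in PBL were 5 of 6 markers of border-associated macrophages (11.5 to 25.5 against 69.5 to 115 CPM), 2 of 5 microglia markers and 1 each of the astrocyte, oligodendrocyte, monocyte and vessel markers. Ch25h was higher in PBL, with no overlap (2.07, SE 0.40, adjusted p = 0.0013). Hmgcs1, at 23.6 to 29.8 CPM in PBL, lay below all PL libraries at -0.55 (SE 0.16, adjusted p = 0.0121), and Insig2 was at -0.53 (adjusted p = 0.00731). The call of Hmgcs1 was lost without PL replicate 1 or 4 (adjusted p = 0.0627 and 0.053). Gm48342, the antisense gene that overlaps Hmgcs1, was lower in PBL as well, at -1.13 (adjusted p = 0.0129), and reads of the overlap cannot be told apart. The call of Fdps (2.00) was lost without PL replicate 1, 2 or 4 or PBL replicate 1 or 4, with adjusted p values from 0.0571 to 0.0893. That of Srebf2 (0.52) was lost without PL replicate 1, 2 or 4 or PBL replicate 2, 3, 4 or 5, from 0.055 to 0.184, and that of Abcg1 (-0.37) without PL replicate 1 or 4 or PBL replicate 3 or 4, from 0.0533 to 0.164. Without PL replicate 3, 6 genes were called lower in place of 3, and without PBL replicate 1, 5 were.

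Whether the response to a first LPS differed after depletion was tested directly. None of the 32 genes, and 0% of all genes, was called by edgeR, and DESeq2 called none of the 32. Without PBP replicate 5, 310 of all genes were called higher and 430 lower, Insig2 among the latter (-0.62, adjusted p = 0.0481). All remaining PBP libraries were sorted on another instrument than PBL, while PL and PP share theirs. Instrument and depletion thus cannot be told apart in the values without that library. With all libraries, Cyp51, Ebp, Insig2 and Soat1 had an unadjusted p under 0.05, and the Ch25h difference was 1.20 (SE 0.89, adjusted p = 0.589). After 2 LPS injections, Ch25h was the 1 gene of 32 called between LBL and LL, against 1.21% of all genes (0.487% higher and 0.722% lower), at 2.00 (SE 0.40, adjusted p = 0.00879). The ranges overlap, because LL replicate 5 (22.2 CPM) exceeded the lowest LBL library (19.9 CPM). That library was sorted on the day of LBL replicates 1 to 4. With the day in the fit the value was 1.84 (adjusted p = 0.0451), and without LL replicate 5 it was 2.63. In LBL against LL 5 of 6 markers of border-associated macrophages were called lower (6.89 to 17.9 against 40.4 to 71.3 CPM), and 1 microglia, 1 monocyte and 1 vessel marker were.

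Other genes of sterol and lipid handling were counted by list. The alternative fits were not applied to these lists, and instrument and LPS are not fully separate in PBL against PBP. Of 7 tested genes for oxysterol metabolism, receptors and liver X receptor targets, none rose and 4 fell in each response to a first LPS, where 11.9% of all genes were called lower in PL against PP and 21.5% in PBL against PBP. Gpr183, the receptor of immune cells for 7-alpha,25-dihydroxycholesterol, fell by 1.55 on the log2 scale (SE 0.12, adjusted p = 2.15e-12) in PL against PP and by 1.91 (SE 0.11, adjusted p = 1.33e-15) in PBL against PBP. Gpr183 had 512 to 624 CPM in PP against 170 to 224 in PL, and 519 to 696 in PBP against 134 to 204 in PBL. Arl4c (-1.36 and -1.78) and Lpcat3 (-0.36 and -0.71), both known liver X receptor targets, fell too. The list's median was -0.36 and -0.68, beside 0 for all genes.

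Of 13 tested genes for lipoprotein uptake and sterol transport, 2 rose and 5 fell in PL against PP, and 3 rose and 4 fell in PBL against PBP. These are 53.8% in each comparison, beside 26.2% and 43.1% of all genes called in either direction. Gramd1a, which moves cholesterol from the plasma membrane to the endoplasmic reticulum, rose by 1.88 and 1.85 on the log2 scale (SE 0.15 each). Stard5, a sterol carrier, fell by 2.00 and 2.07 (SE 0.19 and 0.17), and Lipa, the lysosomal lipase that frees cholesterol from its esters, by 0.70 and 0.96 (SE 0.13 and 0.12). Of 8 genes for SREBP processing and sterol-regulated degradation, 1 rose and 1 fell in PL against PP and 5 fell in PBL against PBP, 25% and 62.5% of the list. The first share is near the 26.2% of all genes. Rnf145, a ubiquitin ligase of the sterol-sensing machinery, fell in both (-0.59 and -0.97). Erlin1 rose in PL against PP (0.62), and Mbtps1, the first protease that cuts SREBP, fell in PBL against PBP (-0.52). Of 11 tested fatty acid synthesis genes and SREBP1 targets, 2 rose and 2 fell in PL against PP (36.4%) and 5 rose and 3 fell in PBL against PBP (72.7%), beside 26.2% and 43.1% of all genes. Mid1ip1, a regulator of acetyl-CoA carboxylase, fell by 1.25 and 1.81 (SE 0.16 and 0.15) and Acly, which makes cytosolic acetyl-CoA, by 0.47 and 0.78. Fads2, a fatty acid desaturase, was at 7.82 to 18.3 CPM in PBL and 0.514 to 3.24 in PBP and rose by 2.64 (SE 0.42, adjusted p = 3.81e-06).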

How the data were processed

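The authors deposited whole-number read counts per gene, not normalized, and a sample table with an RNA quality number for each library, a score that is higher for more intact RNA. FastQC 0.11.9, cutadapt 2.10, TopHat, SAMtools 1.10, Picard 2.13.2, HTSeq 0.11.0 and the build GRCm39 are named in the submitters' processing notes. For the counting, neither the annotation release nor the strand setting is given in the sources used here. Sorting instrument and day were also recorded, per the labels and the deposited sample table.

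Counts were analysed with edgeR 4.0.16 in R 4.3.3: filterByExpr at its defaults (16632 genes), TMM scaling and a robust quasi-likelihood fit over all 29 libraries with 1 coefficient per group (23 residual degrees of freedom), p-values two-sided. CPM values (counts scaled to library size) use TMM-scaled sizes. Replicates are separate samples in the labels, which do not describe them further; the p-values thus reflect only the spread among these libraries, which may be technical. The 56 pairs of libraries within groups differed by more than sampling noise (chi-square per degree of freedom 5.47 to 32.5). Scripts were tested on simulated data. Genes named from the 4 further lists were the called ones with the smallest adjusted p, at most 3 per list. All members and lists were chosen with earlier results of these data known. Alternatives were DESeq2 1.42.0 and its size factors, no filter, sorter, day, RNA quality number or replicate number in the fit, 1 sorter or day only, the compared groups only, and leaving out each library. Gene and exon overlaps were taken from GENCODE M21 as names and lengths only, since its build differs from that of the counts. One marker gene is not reported here, and the marker sums and counts leave it out.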

Additional observations from a re-analysis of the deposited data

Results flagged for a closer look

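In 9 of 198 combinations of a gene and a group, 1 library stood apart from the others, its gap to the nearest library exceeding Dixon's 95% limit; chance flags about 1 in 20. The Ch25h level of LL replicate 5 was 22.2 CPM, where the next library of its group had 7.73. Fdft1 was low in PBP replicate 5 (47.1 CPM, next 55.8) and in PL replicate 2 (63.6 CPM, next 76.9). Lss was high in PP replicate 4 (10.8 CPM, next 4.58) and Dhcr7 in PBL replicate 5 (29.2 CPM, next 22.2). Sc5d was low in LBL replicate 3 (27.6 CPM, next 33.3). Srebf1 was high in PBP replicate 2 (29.2 CPM, next 17.7), Nr1h3 in LL replicate 2 (1.61 CPM, next 0.73) and Soat1 in PP replicate 3 (170 CPM, next 149).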

How the results depend on the processing

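Of 57 called values over the 11 comparisons, 57 kept direction and call with DESeq2 and with its size factors, 51 without the filter on low counts, 51 with only the compared groups fitted, 47 with the RNA quality number in the fit and 23 with the sorter in the fit. With the sorter in the fit, called numbers became 2 lower in PBL against PBP (from 6), 0 higher and 0 lower in LL against PL (from 1 and 3) and in PBL against PL (from 3 and 3), 2 higher and 1 lower in LL against PP (from 4 and 8), and 1 higher and 2 lower in LBL against PBP (from 6 and 5). Calls over all genes tested fell in these comparisons too. They became 1230 higher and 994 lower in PBL against PBP (from 3580 and 3583) and 1 and 10 in LL against PL (from 125 and 338). In PBL against PL they became 0 and 3 (from 1828 and 1845). In LL against PP they became 796 and 385 (from 3145 and 2195), and in LBL against PBP 945 and 664 (from 2423 and 2261). In that fit Ch25h reversed to 4.58 in LL against PL (adjusted p = 0.728), and Mvk to 0.59 (0.759) and Nsdhl to 0.51 (0.603) in LL against PP. The sorter term rests on PBP replicate 5 alone, where the Ch25h count was 0, so its fitted fold change depends on the prior count. One sorter only gave 2 lower in PBL against PBP and 1 higher and 2 lower in LBL against PBP; it gave no value for LL against PL, PBL against PL, LL against PP or the differences. Without the filter, 0 were higher in LL against PL and 1 in PBL against PL, where 98 and 1469 of 32238 genes were. With only the compared groups, 0 were higher in LL against PL, where 107 of all genes were (from 125). With the RNA quality number, 0 were higher in LBL against PBL, 1 in PBL against PL and 5 lower in LL against PP. Over all genes these numbers were 196 (from 456), 1151 (from 1828) and 2044 (from 2195). The cause of these changes was not tested. Leaving out each library gave ranges of 5 to 8 lower in LL against PP, 0 to 1 higher in LL against PL, 1 to 3 higher and 1 to 6 lower in PBL against PL, 1 to 2 higher in LBL against PBL and 0 to 1 lower for the difference in LPS response. Of 3984 such values, 64 lost a call, 19 gained one and 0 reversed.

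Replicate numbers did not pair the samples: over 70 pairs of libraries with the same number the correlation of deviations had a median of 0.01, and 8 pairs exceeded 0.1. With the replicate block, 55 of the 57 calls were kept, Tm7sf2 in LL against PL (adjusted p = 0.0766) and Fdps in PBL against PL (0.0603) being lost, so that 0 genes were higher in LL against PL. Genes at a few counts, such as Idi1, Fdps, Tm7sf2 and Nr1h3, are limited by depth. For Fdps and Tm7sf2, exon bases shared with another gene on the same strand may limit the counts too, which was not tested.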
